A study of Mus musculus with 6 samples.

Results

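The genes described here are 35 transcripts of macrophages and monocytes, matched by gene symbol among the 24493 genes of the deposited table. They were read in bulk RNA sequencing of mouse pancreatic tumor cells of the 6419c5 line, collected by cell sorting from subcutaneous tumors in C57BL/6 hosts. The 4 control libraries came from tumors without the combination. The 2 GAFCP libraries came from tumors given gemcitabine, abraxane (albumin-bound paclitaxel), a CD40 agonist, and blockade of both PD-1 and CTLA-4. All 6 libraries share the tumor line, the implantation site and the sort, and the labels give no animal ages and name neither the marker of the sort nor the animal behind each library. The p-values below therefore measure only how far libraries of a group spread, which may be technical variation.

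Macrophages and monocytes are phagocytes that depend on the transcription factor PU.1 (gene Spi1) and, for most macrophages, on the growth factor receptor CSF1R. Monocytes circulate and enter tissue through chemokine receptors such as CCR2. Macrophages settled in tissue carry complement C1q, scavenger receptors and the adhesion receptor encoded by Adgre1. Both sense antibody-coated targets through Fc receptors, which signal through small adaptor proteins. In tumors they are often the most abundant leukocytes, and agonists of CD40, a receptor they carry, act on them. The 35 genes were divided from such general knowledge into 11 resident-type genes (found mainly in settled tissue macrophages), 7 monocyte-type genes and 17 genes shared by both. Genes and classes were chosen with earlier results of these data known, so the classes are not independent of the values below. These classes overlap in living tissue, and several shared genes are also used by dendritic cells, neutrophils or other cells.

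The libraries were labelled as tumor cells, and keratin transcripts were abundant in all of them, though most were lower with GAFCP. The 7 epithelial markers summed to 6667 to 7040 TPM (a transcript abundance corrected for gene length and brought to 1 common total in all libraries) in controls and to 5080 and 5112 TPM with GAFCP. By limma 4 of them were lower. Mean TPM went from 2321 to 1544 for Krt8, from 1615 to 1021 for Krt19, from 728.1 to 496.4 for Krt7 and from 12.8 to 1.54 for Epcam. Krt18 (1766 to 1691 TPM) and Cdh1 (357.8 to 332.3 TPM) did not pass, and 1 marker was higher. Ptprc, which encodes the leukocyte surface protein CD45, was nevertheless present in every library, between 2.17 and 3.06 TPM in controls and at 10.1 and 9.45 TPM with GAFCP. TPM keeps no sequencing depth, so no counting interval can be given. The first principal component (66.0% of variance) separated the groups, and the second (13.8%) separated control libraries 1 and 2 from control libraries 3 and 4. Controls 1 and 2 both stood above controls 3 and 4 for 9 of the 35 genes (25.7%, against 32.9% of all tested genes) and both below for 5 (14.3%, against 6.57%).

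All 35 genes passed the filter on low values (at least 1 TPM in at least 2 libraries), none of them through the GAFCP libraries alone, and 33 were at or above 1 TPM in every library. Their summed level was 1317, 1374, 1317 and 1310 TPM in control libraries 1 to 4 and 4151 and 4167 TPM in GAFCP libraries 1 and 2. The GAFCP sums thus lay above every control sum, with a mean of 4159 ± 11.2 TPM (SD, n = 2) against 1330 ± 30.0 TPM (SD, n = 4), a ratio of 3.13. These transcripts made up 0.133% of all TPM in controls and 0.416% with GAFCP. In such bulk samples, more macrophages among the sorted cells and more of these transcripts per cell cannot be told apart.

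**Figure D1:**
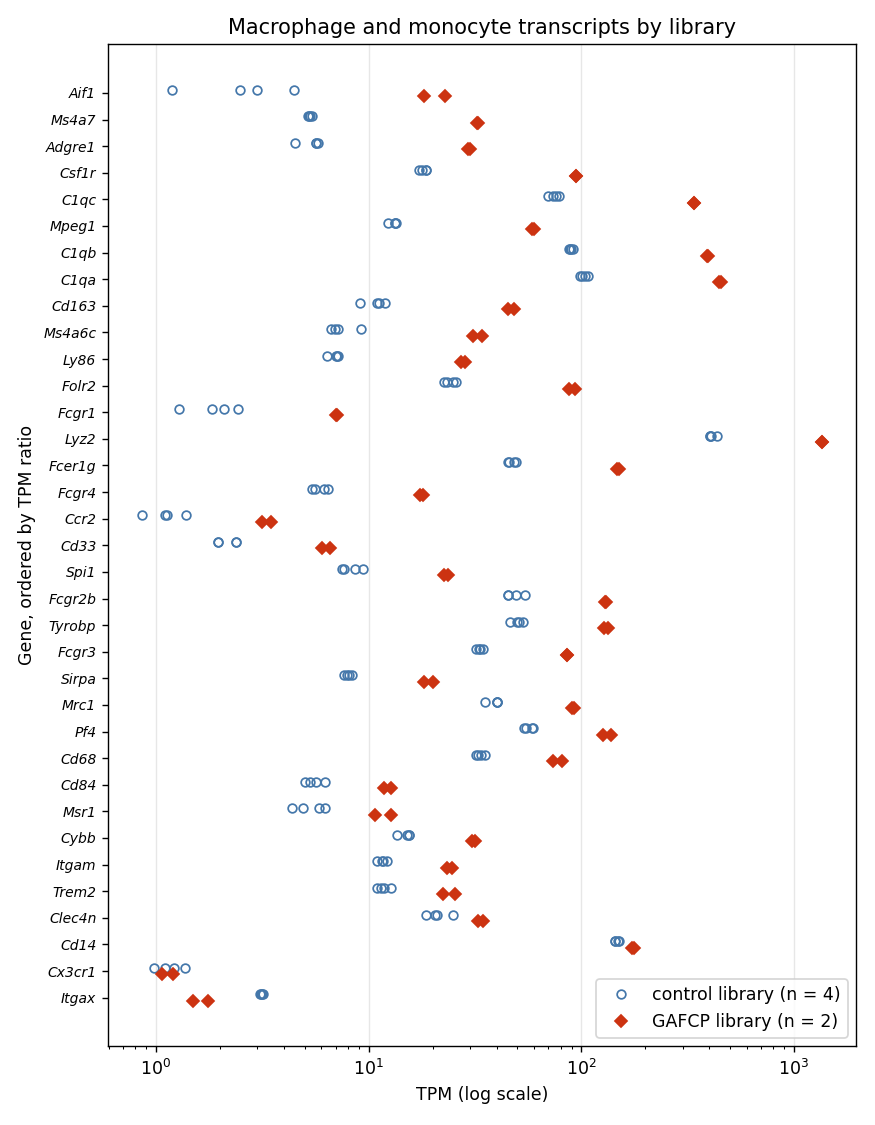
TPM of each of the 35 genes in every library (log axis), ordered from the lowest to the highest ratio of GAFCP mean to control mean; open circles are the 4 control libraries and diamonds the 2 GAFCP libraries. The GAFCP points lie above all control points for 33 genes, below them for Itgax, and among them for Cx3cr1.

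Tested with limma on log2(TPM + 1) over 13720 genes, 33 of the 35 genes were higher with GAFCP, Itgax was lower and Cx3cr1 did not pass (adjusted p under 0.05). Over all tested genes 19.0% were called higher and 28.5% lower, 47.5% in either direction. Both GAFCP libraries stood above all 4 controls for 33 of the 35, where the share over all tested genes was 24.7%, and below all controls for 1, where it was 36.9%. The median log2 change was 1.38 over the 35 genes and -0.07 over all tested genes. Fold changes on this scale understate the change of low genes, so the ratio of mean TPM is given beside them. The median TPM ratio was 2.91, with quartiles of 2.26 and 4.34. Of the 35 ratios, 31 were at least 2 (6.98% of all tested genes) and 11 at least 4 (2.32% of all tested genes).

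The upstream sequence of some of these genes is shown because genes that moved together can be read beside the letters before their starts. RefSeq promoter windows on GRCm38.p6 were matched for 26 of the 35 genes, in 29 windows, and the 250 bases before each start were searched on both strands. The PU.1 core GAGGAA was in 13 of 29 windows (44.8%) and in 23.3% of all 32851 windows. Its longer form GAGGAAGT, which contains the core, was in 3 windows (10.3%, against 2.44% of all), those of C1qc, Fcgr4 and Pf4. An interferon-response type motif, GAAA repeated after a gap of any 2 bases, was also in 3 (10.3%, against 2.98% of all), those of Aif1, Cybb and Fcgr4. The composite of PU.1 and interferon regulatory factors, GGAA and GAAA with any 2 bases between them, was in 2 (6.90%, against 2.30% of all), those of Fcgr2b and Folr2. A match is a description of letters, not of a bound site. Shown 5′ to 3′ on the gene's strand are 2 C1q chains, the genes with the longer PU.1 form, and Itgax, which fell and has no match. A lack of matches was not particular to Itgax. Ms4a7, with a TPM ratio of 6.16, has none in its windows (not shown), and the core was found for only 12 of the 26 genes. Whether matches go with the direction of change was not tested. Capitals mark matches, and ACTTCCTC is GAGGAAGT read on the other strand.
C1qb (chr4:136886201-136886450, minus strand): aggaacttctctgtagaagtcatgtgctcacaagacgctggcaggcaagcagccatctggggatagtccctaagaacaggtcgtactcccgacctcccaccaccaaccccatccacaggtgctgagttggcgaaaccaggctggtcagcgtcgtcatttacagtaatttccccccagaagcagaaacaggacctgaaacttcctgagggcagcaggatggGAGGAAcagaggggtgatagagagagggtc
C1qc (chr4:136892915-136893164, minus strand): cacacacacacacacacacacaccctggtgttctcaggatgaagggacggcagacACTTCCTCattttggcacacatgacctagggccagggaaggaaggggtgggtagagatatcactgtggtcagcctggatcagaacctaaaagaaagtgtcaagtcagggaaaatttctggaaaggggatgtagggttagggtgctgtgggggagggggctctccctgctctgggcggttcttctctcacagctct
Fcgr4 (chr1:171018676-171018925, plus strand): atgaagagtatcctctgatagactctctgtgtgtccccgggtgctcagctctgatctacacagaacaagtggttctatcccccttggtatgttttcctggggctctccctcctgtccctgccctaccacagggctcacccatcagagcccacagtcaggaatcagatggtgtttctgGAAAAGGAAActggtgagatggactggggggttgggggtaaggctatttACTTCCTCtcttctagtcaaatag
Pf4 (chr5:90772185-90772434, plus strand): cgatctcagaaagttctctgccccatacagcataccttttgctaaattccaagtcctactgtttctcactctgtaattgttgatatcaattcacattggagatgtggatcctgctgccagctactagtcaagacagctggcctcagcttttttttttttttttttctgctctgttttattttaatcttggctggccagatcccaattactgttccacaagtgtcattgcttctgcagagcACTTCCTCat
Itgax (chr7:128129300-128129549, plus strand): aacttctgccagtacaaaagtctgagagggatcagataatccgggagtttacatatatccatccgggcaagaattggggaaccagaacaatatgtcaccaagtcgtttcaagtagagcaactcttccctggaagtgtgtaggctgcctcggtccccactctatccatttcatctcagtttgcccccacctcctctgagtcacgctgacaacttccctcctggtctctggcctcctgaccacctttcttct

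The regulators of the lineage both rose, by different amounts. Spi1, which encodes PU.1, was at 7.70, 7.48, 9.41 and 8.61 TPM in control libraries 1 to 4 and at 22.7 and 23.6 TPM with GAFCP. Csf1r, which encodes the receptor for the macrophage growth factors CSF1 and IL-34, was at 17.8, 18.6, 17.2 and 18.7 TPM in controls and at 94.5 and 94.9 TPM with GAFCP. Neither gene's groups overlapped. The TPM ratio was 2.79 for Spi1 (log2 change 1.38 ± 0.09 SE, limma adjusted p = 1.4e-05) and 5.23 for Csf1r (2.33 ± 0.05 SE, adjusted p = 4.3e-08). The level of Csf1r over that of Spi1 was 1.83 to 2.49 in controls and 4.16 and 4.02 with GAFCP.

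The 3 chains of complement C1q, which bind antibody complexes and dying cells, rose in near step. Their genes lie next to each other on the minus strand of chromosome 4 (mm10), C1qb from 136880129 to 136886187, C1qc from 136889804 to 136893065 and C1qa from 136895917 to 136898803. C1qa was at 100.4, 104.5, 107.3 and 98.2 TPM in controls and at 452.2 and 443.6 TPM with GAFCP. C1qb was at 88.7, 91.1, 87.2 and 89.4 TPM in controls and at 388.9 and 393.7 TPM with GAFCP. C1qc was at 69.5, 78.6, 76.5 and 73.9 TPM in controls and at 338.6 and 339.8 TPM with GAFCP. Every control value of each chain lay far below both GAFCP values. The TPM ratios were 4.36, 4.39 and 4.55, and the log2 changes 2.12 ± 0.04, 2.12 ± 0.03 and 2.17 ± 0.05 (SE; limma adjusted p = 3.6e-08, 1.5e-08 and 5.8e-08). The C1qa to C1qb ratio was 1.10 to 1.23 in controls and 1.16 and 1.13 with GAFCP, inside the control range, as was C1qc over C1qb (0.783 to 0.877 against 0.871 and 0.863).

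All 7 Fc receptor and adaptor genes rose, with TPM ratios of 2.04 to 3.70, below those of the C1q chains. Fcgr2b (170958617 to 170976547), Fcgr4 (171018920 to 171029761), Fcgr3 (171051174 to 171064935) and Fcer1g (171229572 to 171234365) lie in 1 stretch of chromosome 1, while Fcgr1 is on chromosome 3. Fcgr2b, the inhibitory receptor for IgG, was at 49.5, 54.5, 45.3 and 45.2 TPM in controls and at 130.0 and 130.7 TPM with GAFCP. The activating receptor Fcgr3 was at 33.2, 33.3, 31.9 and 34.5 TPM in controls and at 85.9 TPM in both GAFCP libraries. The inhibitory and the activating receptor had TPM ratios of 2.68 and 2.59, and the Fcgr3 to Fcgr2b ratio in the GAFCP libraries (0.661 and 0.657) lay within the control range of 0.612 to 0.763. Fcgr4, an activating receptor of monocytes and macrophages, was at 5.41, 5.58, 6.47 and 6.15 TPM in controls and at 17.4 and 18.0 TPM with GAFCP. Fcgr1, the high-affinity IgG receptor, was at 2.08, 2.44, 1.84 and 1.29 TPM in controls and at 7.06 and 7.12 TPM with GAFCP. It had the highest TPM ratio of these 4 receptors, 3.70, but its library pairs ranged from 2.89 to 5.50. All 4 passed the test (limma adjusted p = 4.5e-06 for Fcgr2b, 3.3e-07 for Fcgr3, 6.4e-06 for Fcgr4 and 1.8e-04 for Fcgr1). Fcgr2b, Fcgr3 and Fcgr4 are related in sequence, and how reads were divided among them was not examined.

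Fcer1g, the common gamma chain through which activating Fc receptors signal, was at 48.1, 45.7, 49.1 and 45.3 TPM in controls and at 147.6 and 149.9 TPM with GAFCP (ratio 3.16, log2 change 1.64 ± 0.05 SE, limma adjusted p = 1.2e-07). Tyrobp, which encodes the adaptor DAP12, was at 46.4, 49.8, 51.0 and 53.4 TPM in controls and at 128.6 and 134.0 TPM with GAFCP (ratio 2.62, log2 change 1.37 ± 0.06 SE, adjusted p = 1.1e-06). The adaptors were at similar levels in controls, and Fcer1g over Tyrobp was 0.849 to 1.04 in controls and 1.15 and 1.12 with GAFCP. Trem2, a lipid-sensing receptor that signals through DAP12, went only from 11.7 ± 0.717 TPM (SD, n = 4) to 22.5 and 25.4 TPM, a ratio of 2.04 (log2 change 0.97 ± 0.08 SE, adjusted p = 3.6e-05). The Trem2 to Tyrobp ratio was 0.225 to 0.238 in controls and 0.175 and 0.189 with GAFCP, with no overlap.

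Scavenger and pattern receptors held both a strong and a weak part of the rise. Cd163, which takes up hemoglobin complexes, was at 10.9, 11.2, 9.08 and 11.9 TPM in controls and at 48.2 and 45.4 TPM with GAFCP, a ratio of 4.35 (limma adjusted p = 2.2e-06). The mannose receptor Mrc1 was at 40.2, 40.2, 35.4 and 40.1 TPM in controls and at 92.2 and 90.5 TPM with GAFCP, a ratio of 2.34 (adjusted p = 3.1e-06). Mrc1 over Cd163 thus went from a control range of 3.39 to 3.90 to 1.91 and 1.99, although both are often read as markers of the same kind of macrophage. Folr2, a folate receptor of tissue macrophages, was at 22.7 to 25.9 TPM in controls and at 87.3 and 93.5 TPM with GAFCP (ratio 3.73, adjusted p = 3.2e-07). The lysosomal glycoprotein gene Cd68 went from 32.0 to 35.2 TPM in controls to 73.8 and 81.4 TPM (ratio 2.32, adjusted p = 2.5e-06). The scavenger receptor Msr1 went from 4.35 to 6.22 TPM in controls to 10.7 and 12.7 TPM (ratio 2.19, adjusted p = 6.1e-04).

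Of the pattern receptors, Ly86 rose most and Cd14 least. Ly86, which encodes the MD-1 partner of the receptor RP105, was at 7.06, 6.37, 7.09 and 7.16 TPM in controls and at 27.2 and 28.4 TPM with GAFCP, a ratio of 4.02 (limma adjusted p = 5.6e-07). Cd14, the coreceptor for bacterial lipopolysaccharide, was at 144.2, 150.9, 149.5 and 143.8 TPM in controls and at 173.6 and 176.6 TPM with GAFCP, a ratio of 1.19 (log2 change 0.25 ± 0.04 SE, adjusted p = 9.2e-04). Clec4n, which encodes the fungal receptor dectin-2, was at 24.9, 20.9, 20.6 and 18.6 TPM in controls and at 32.6 and 34.4 TPM with GAFCP, a ratio of 1.58 (log2 change 0.64 ± 0.10 SE, adjusted p = 0.00147). Cd14 was the second most abundant of the 35 genes in controls, after Lyz2, and its level over that of Ly86 fell from 20.1 to 23.7 in controls to 6.39 and 6.22.

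Adhesion genes included both one of the strongest rises and the only fall. Adgre1, a classical surface marker of mouse macrophages, was at 5.65, 5.68, 4.49 and 5.80 TPM in controls and at 29.2 and 30.0 TPM with GAFCP, a ratio of 5.47 (log2 change 2.26 ± 0.10 SE, limma adjusted p = 1.3e-06). Itgam, the CD11b integrin chain of myeloid cells, was at 12.2, 10.9, 11.7 and 11.6 TPM in controls and at 23.4 and 24.8 TPM with GAFCP, a ratio of 2.08 (adjusted p = 1.1e-05). Itgax, the CD11c integrin chain of dendritic cells and some macrophages, was at 3.20, 3.12, 3.10 and 3.15 TPM in controls and at 1.49 and 1.76 TPM with GAFCP, a ratio of 0.518 (-0.66 ± 0.10 SE, adjusted p = 0.00112). Itgam and Itgax are neighbours on the plus strand of chromosome 7 (128062640 to 128118491 and 128129547 to 128150657, mm10). The level of Itgax over that of Itgam was 0.262 to 0.285 in controls and 0.0636 and 0.0712 with GAFCP. Of 8 dendritic cell markers 3 were tested and 1, Ccr7, was called higher. The summed level of the 8 was 6.82 to 7.62 TPM in controls and 7.24 to 8.71 TPM with GAFCP, and Flt3, Xcr1, Clec9a, Siglech and Wdfy4 did not pass the filter on low values. Their part in the Itgax result was not tested.

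The chemokine receptors were among the least abundant of these genes. Ccr2, the receptor for the monocyte attractant CCL2, was at 1.39, 1.13, 0.865 and 1.11 TPM in controls and at 3.16 and 3.48 TPM with GAFCP (ratio 2.95, log2 change 1.03 ± 0.13 SE, limma adjusted p = 5.3e-04). Cx3cr1, the fractalkine receptor of patrolling monocytes and many resident macrophages, was at 1.10, 0.981, 1.22 and 1.37 TPM in controls and at 1.07 and 1.20 TPM with GAFCP. Its groups overlapped and its log2 change was -0.02 ± 0.13 (SE, adjusted p = 0.928). Pf4, a chemokine of platelets that macrophages also make, was at 54.0, 59.6, 54.8 and 58.7 TPM in controls and at 138.6 and 126.6 TPM with GAFCP (ratio 2.34, adjusted p = 2.3e-06). Platelet markers stood much lower: of 5, both tested genes, Ppbp and Itga2b, were called higher, and the sum of the 5 was 6.33 to 7.48 TPM in controls and 9.88 to 10.7 TPM with GAFCP, a ratio of 1.51.

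Among the microbicidal effectors, Lyz2, which encodes lysozyme M, was the most abundant of all 35 genes. It was at 406.4, 434.3, 404.7 and 401.3 TPM in controls and at 1359 and 1355 TPM with GAFCP (ratio 3.30, log2 change 1.72 ± 0.04 SE, limma adjusted p = 4.3e-08), and made up 31.0% of the summed TPM of the 35 genes in controls and 32.6% with GAFCP. Mpeg1, which encodes the pore-forming protein perforin-2, was at 13.3, 13.5, 12.3 and 13.3 TPM in controls and at 59.0 and 59.7 TPM with GAFCP (ratio 4.54, adjusted p = 9.0e-08). Cybb, the membrane catalytic subunit of the phagocyte NADPH oxidase, was at 15.1, 15.5, 13.6 and 15.5 TPM in controls and at 30.7 and 31.6 TPM with GAFCP (ratio 2.09, adjusted p = 1.2e-05). Mpeg1 and Cybb were near each other in controls, with a Cybb to Mpeg1 ratio of 1.11 to 1.17, and apart with GAFCP, at 0.521 and 0.529.

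The strongest rises by ratio were in Aif1 and Ms4a7. Aif1, which encodes the cytoskeletal protein IBA1, was at 2.48, 4.45, 2.98 and 1.19 TPM in controls and at 22.9 and 18.3 TPM with GAFCP. Its ratio of 7.43 was the least precise of the set, with library pairs from 4.12 to 19.3 (log2 change 2.58 ± 0.31 SE, limma adjusted p = 3.4e-04). Ms4a7, a tetraspan protein of macrophages, was at 5.20, 5.29, 5.42 and 5.25 TPM in controls and at 32.6 and 32.5 TPM with GAFCP, a ratio of 6.16 with library pairs from 6.01 to 6.27 (2.42 ± 0.06 SE, adjusted p = 6.8e-08). Ms4a6c, a monocyte-associated relative on the same part of chromosome 19, was at 9.22, 6.92, 6.64 and 7.22 TPM in controls and at 30.9 and 34.3 TPM with GAFCP (ratio 4.34, adjusted p = 7.9e-06). The inhibitory and contact receptors rose too, with TPM ratios of 2.40 for Sirpa, the receptor for CD47, 2.91 for the sialic acid receptor Cd33 and 2.21 for the self-binding receptor Cd84 (adjusted p = 8.1e-06, 6.9e-05 and 7.5e-05).

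By class, all 11 resident-type genes and all 7 monocyte-type genes were called higher, and 15 of 17 shared genes (19.0% of all tested genes). The median TPM ratio was 4.35 for resident-type genes (range 2.04 to 6.16), 2.91 for monocyte-type genes (1.19 to 4.34) and 2.68 for shared genes (0.518 to 7.43). Ratios of at least 4 were found for 6 resident-type genes, 1 monocyte-type gene and 4 shared genes (2.32% of all tested genes). The classes overlapped widely, since Mrc1, Pf4, Msr1 and Trem2 of the resident type had lower ratios than Ms4a6c of the monocyte type. On the log2(TPM + 1) scale the medians were 2.03, 1.03 and 1.38, so the order of the monocyte-type and shared medians depended on the pseudocount: with a pseudocount of 0.1 they were 2.12, 1.50 and 1.42. The difference between classes was not tested. In summed TPM, resident-type genes went from 414.8 to 439.2 TPM in controls to 1641 and 1634 TPM, and monocyte-type genes, in which Cd14 weighs most, from 190.4 to 199.7 TPM to 287.1 and 298.2 TPM.

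**Figure D2:**
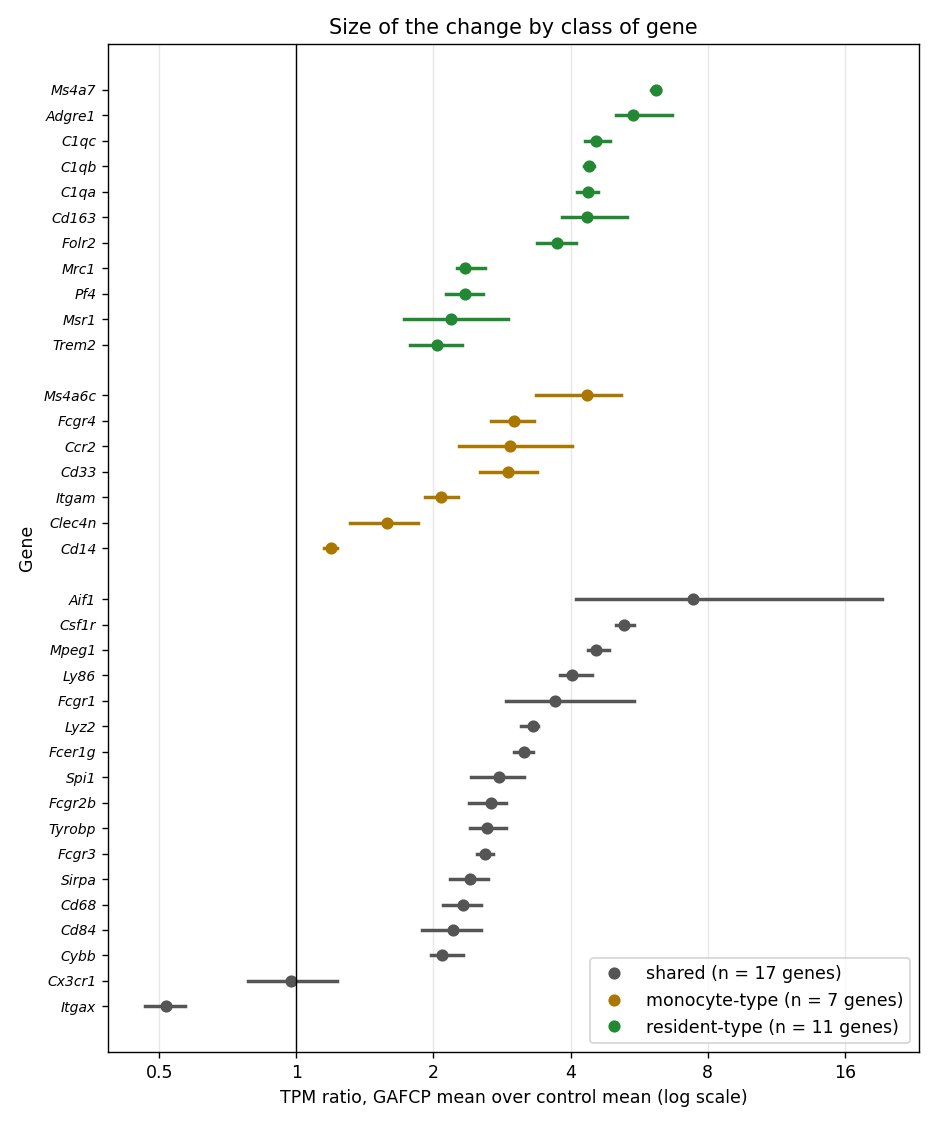
Ratio of GAFCP mean to control mean TPM for each gene (log axis), by class; points are ratios of means and bars run from the lowest to the highest ratio of a single GAFCP library to a single control library. Resident-type genes run from 2.04 to 6.16, monocyte-type genes from 1.19 to 4.34 and shared genes from 0.518 to 7.43.

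Whether the rise was even was tested gene by gene against an index of 8 lineage genes (Tyrobp, Fcer1g, Csf1r, Spi1, Mpeg1, Ly86, Cybb and Fcgr3), the mean of their log2(TPM + 0.1) in the same library. The index itself rose by 1.69 on the log2 scale, a factor of 3.22. An index gene was set against the other 7. Of the 35 genes, 12 rose more than the index, 16 stood below it and 7 were not called (limma adjusted p under 0.05 over all genes tested). Over all tested genes 1.68% were called above the index, 93.2% below it and 5.12% not called, so the adjustment changed p-values little, and at an adjusted p under 0.01 the counts were 9 and 15. The count below the index depended on the pseudocount and the index. It was 20 at a pseudocount of 1, the one used for the changes above, with 12 above, and also 20 at a pseudocount of 5, with 11 above. Against all 17 shared genes 14 were above and 12 below, and against the leukocyte genes Ptprc, Laptm5, Cd53 and Lcp1 13 were above and 13 below. The index genes were taken from the same 35 genes with earlier results of these data known, so the counts on either side depend on that choice. In these fits the rise was not the same for all genes of the set.

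Above the index stood Ms4a7 by 0.91 ± 0.07 (SE, log2), Csf1r by 0.79 ± 0.06 against the other index genes, Adgre1 by 0.75 ± 0.11, Mpeg1 by 0.56 ± 0.07, the C1q chains by 0.44 to 0.50, Cd163 by 0.43 ± 0.10 and Ly86 by 0.35 ± 0.08 (limma adjusted p from 1.1e-06 for Csf1r to 0.00314 for Cd163). Aif1, Ms4a6c and Folr2 were also above it, less firmly. Aif1 lost the call without GAFCP library 1 (adjusted p = 0.0908), Ms4a6c without GAFCP library 2 (adjusted p = 0.0824) and Folr2 without either (adjusted p = 0.0538 without library 1 and 0.138 without library 2). In these fits the remaining GAFCP library was assumed to vary as the controls did. At a pseudocount of 5 Ly86, Aif1 and Ms4a6c lost the call (limma adjusted p = 0.589, 0.107 and 0.116). Aif1 also lost it under the robust variance model (adjusted p = 0.095). Ms4a6c lost it with the replicate block (adjusted p = 0.0999) and with controls 1 and 2 alone (adjusted p = 0.0982). Of the 11 resident-type genes 7 were above and 4 below the index, of the 7 monocyte-type genes 1 above and 3 below, and of the 17 shared genes 4 above and 9 below.

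Farthest below the index were Itgax at -2.60 ± 0.14, Cx3cr1 at -1.71 ± 0.25, Cd14 at -1.44 ± 0.05 and Clec4n at -1.02 ± 0.12 (SE, log2; limma adjusted p = 1.1e-07, 1.3e-04, 6.8e-09 and 2.2e-05). Cybb, Trem2, Itgam, Cd84, Msr1, Cd68, Pf4, Mrc1, Sirpa, Fcgr3, Tyrobp and Fcgr2b followed, between -0.72 and -0.26. Msr1 lost the call without GAFCP library 1 (adjusted p = 0.0645), and Fcgr2b without either GAFCP library (adjusted p = 0.0608 and 0.0839). When the index was made of all 17 shared genes, Tyrobp, Fcgr3, Fcgr2b and Msr1 were no longer called (adjusted p = 0.683, 0.424, 0.953 and 0.0701). Against the 4 leukocyte genes Tyrobp, Fcgr3 and Fcgr2b were not called (adjusted p = 0.259, 0.076 and 0.361), and at a pseudocount of 5 Fcgr2b was not (adjusted p = 0.256). Genes that were not called were Fcgr1 (0.18 ± 0.24), Lyz2 (0.03 ± 0.05), Fcer1g (-0.03 ± 0.06), Fcgr4 (-0.12 ± 0.09), Cd33 (-0.18 ± 0.15), Ccr2 (-0.19 ± 0.23) and Spi1 (-0.24 ± 0.11). All 7 gained a call under some alternative. Lyz2 was above the index of all 17 shared genes (0.32, limma adjusted p = 2.9e-05), above the leukocyte genes (0.21, adjusted p = 0.0446) and above the main index at a pseudocount of 5 (0.28, adjusted p = 3.1e-04). Fcer1g was above all 17 shared genes (0.25, adjusted p = 0.00223) and above the main index at a pseudocount of 5 (0.15, adjusted p = 0.0234). At a pseudocount of 1, Ccr2 (-0.60, adjusted p = 0.00272), Cd33 (-0.42, adjusted p = 0.00698), Spi1 (-0.28, adjusted p = 0.0227) and Fcgr4 (-0.19, adjusted p = 0.0495) were below the index, and at 5 they were between -0.99 and -0.38. Spi1 was below it in 7 of 21 alternatives. The Fcgr1 estimate turned to -0.63 at a pseudocount of 5 (adjusted p = 5.2e-05).

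**Figure D3:**
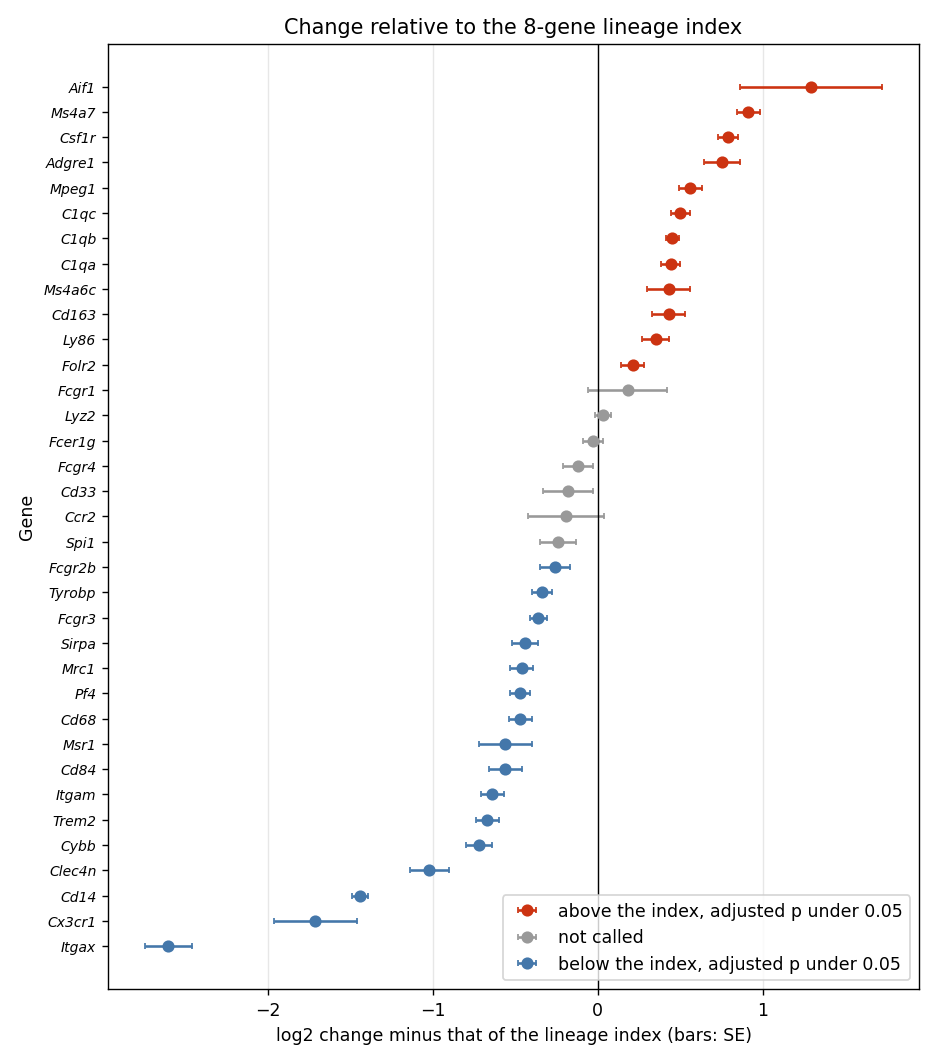
Log2 change of each gene minus that of the 8-gene lineage index (bars are SE from limma), with genes called above the index in red, below it in blue and not called in gray. Values run from -2.60 for Itgax to 1.29 for Aif1, with Lyz2 and Fcer1g next to 0.

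Within-library ratios of 17 pairs of these genes, chosen after their values were seen, were also compared, without an index. The groups did not overlap for 13 pairs and overlapped for the C1q chains and for Fcgr3 and Fcgr4 over Fcgr2b. An exact permutation test over the 15 arrangements of the libraries gave p = 0.0667, two-sided, for 12 of the pairs (adjusted p = 0.0944 over the 17), which is the smallest p this design allows, and p = 0.133 for Fcgr1 over Fcgr2b.

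**Figure D4:**
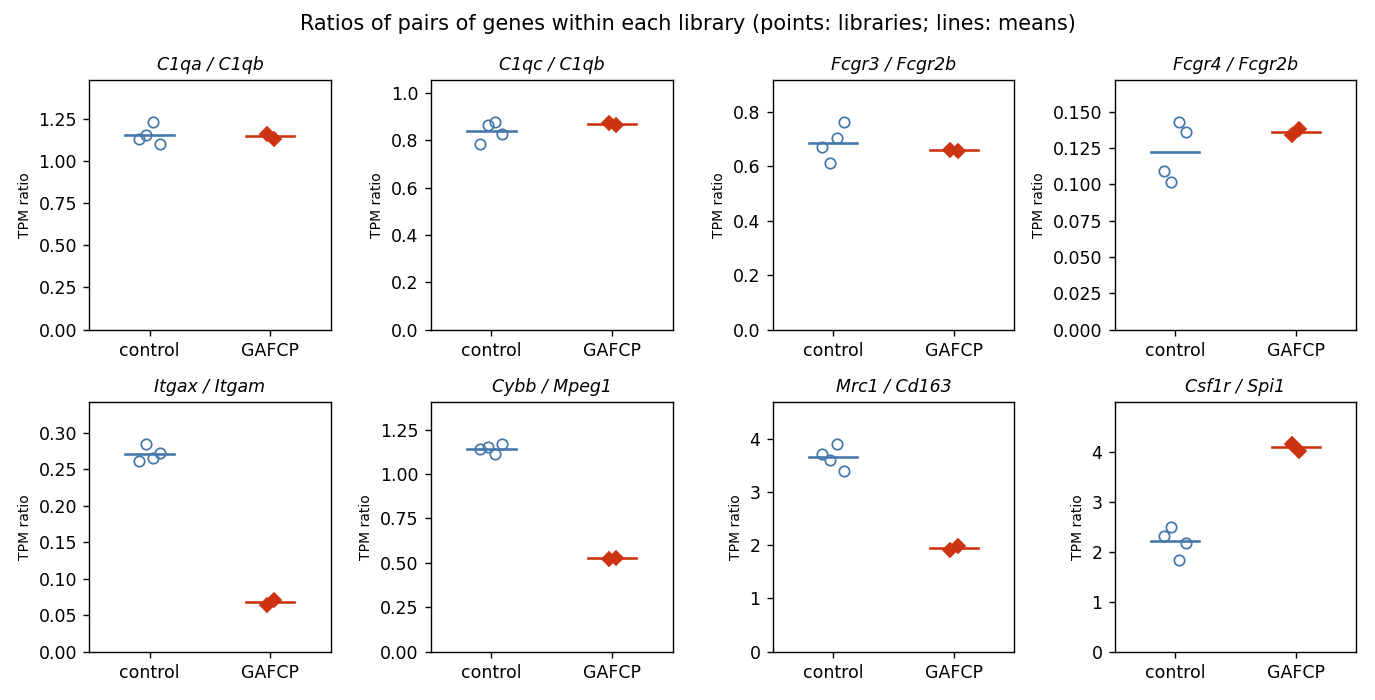
Ratio of TPM between pairs of genes in each library (axes start at 0; circles are control libraries, diamonds GAFCP libraries, lines group means). In the top row (C1q chains and Fc receptors) the groups overlap, while Itgax over Itgam falls from a mean of 0.271 to 0.0674 and Csf1r over Spi1 rises from 2.20 to 4.09.

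Other genes of these cells, in 8 lists with 87 genes of which 81 were tested, were called higher in 64 cases and lower in 4. Of 14 genes of the signaling path below the Fc receptor adaptors, 11 were higher and none lower, among them the kinase Syk (4.52 ± 0.124 TPM in controls, SD, n = 4, and 13.5 TPM in both GAFCP libraries) and the lipid phosphatase Inpp5d (2.18 ± 0.107 TPM, then 9.85 and 9.83 TPM). Of the 5 partners of Cybb in the NADPH oxidase, 4 were higher, with Ncf1 going from 8.44 ± 0.557 TPM to 26.7 and 25.9 TPM. The exception was Cyba, which was at 374.0 to 409.5 TPM in controls and 371.0 and 369.8 TPM after GAFCP (adjusted p = 0.155). Of 10 macrophage transcription factors 8 were higher. Both ligands of CSF1R did not pass, Csf1 at 15.7 to 18.4 TPM in controls, then a mean of 14.5 TPM over both GAFCP libraries (limma adjusted p = 0.0646), and Il34 at 34.2 to 37.9 TPM and 37.5 and 37.2 TPM (adjusted p = 0.336). All 5 chemokine genes of a list drawn up for CCR2 and CX3CR1 were higher, and their action on these receptors in mouse was not examined. Ccl8, which is not taken here as a ligand of mouse CCR2, rose most, from 225.6 to 272.2 TPM in controls to 1253 and 1244 TPM. Ccl7 and Ccl2 had TPM ratios of 3.95 and 3.45, and the CX3CR1 ligand Cx3cl1 had the smallest ratio, 1.35.

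Of 12 tested genes of other resident macrophage genes 9 were higher and 2 lower, and of 10 tested genes of other monocyte genes 7 were higher and 2 lower. The scavenger receptor Stab1 went from 11.2 ± 0.661 TPM (SD, n = 4) to 52.4 and 53.7 TPM, the coagulation factor gene F13a1 from 20.1 ± 0.560 TPM to 82.9 and 82.7 TPM, and the classical monocyte gene Ly6c2 from 1.61 ± 0.616 TPM to 6.51 and 10.3 TPM. The 4 lower genes were the iron exporter Slc40a1 (43.1 to 49.6 TPM in controls, 13.4 and 14.6 TPM in GAFCP libraries), Chil3 (47.8 to 55.6 TPM, then 28.9 and 28.5 TPM), Spp1 (11576 to 12131 TPM, then 9676 and 9781 TPM) and S100a4 (1668 to 1772 TPM, then 1259 and 1275 TPM). In the control libraries Spp1 and S100a4 were above every one of the 35 genes. With GAFCP, S100a4 was below Lyz2. Which cells made the transcripts of these lists was not tested, so the falls cannot be read as changes within macrophages. Of 19 tested pattern receptors outside the set 16 were higher, and Tlr4 did not pass (7.22 to 8.57 TPM in controls, 7.42 and 8.13 TPM in GAFCP libraries).

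Markers of other cells moved in the same libraries. All 9 pan-leukocyte markers were higher, with a summed level of 104.7 to 124.3 TPM in controls and 312.9 to 324.7 TPM with GAFCP, a ratio of 2.74. For T and NK cells, all 9 tested of 12 markers passed as higher (7.59 to 10.1 TPM, then 41.4 to 45.7 TPM, a ratio of 4.72), as was 1 tested of 6 B and plasma cell markers (0.965 to 1.66 TPM, then 6.35 to 6.83 TPM). Of 8 neutrophil markers 4 were tested and 3 were higher (24.1 to 28.3 TPM, then 90.1 to 100.2 TPM, a ratio of 3.57), while Ly6g, Camp, Ltf and Ngp were too low to test. Most of this sum was S100a8 (mean 13.2 TPM in controls, 56.6 TPM with GAFCP) and S100a9 (7.70 and 30.9 TPM). Cxcr2 had a ratio of 1.47. Retnlg was not called, and both its GAFCP values lay below every control (means 2.63 and 1.77 TPM). Fibroblast markers (5 of 7 higher) had a ratio of 1.51. Mast cell markers had a ratio of 0.188, set by Mcpt4, and 1 of 2 tested was called in each direction. Endothelial markers had a ratio of 1.24 (1 of 2 tested higher), and the epithelial markers a ratio of 0.749. No marker of these lists was listed at 0 in all 6 libraries. The part of these other cells in the changes of the 35 genes was not tested.

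**Figure D5:**
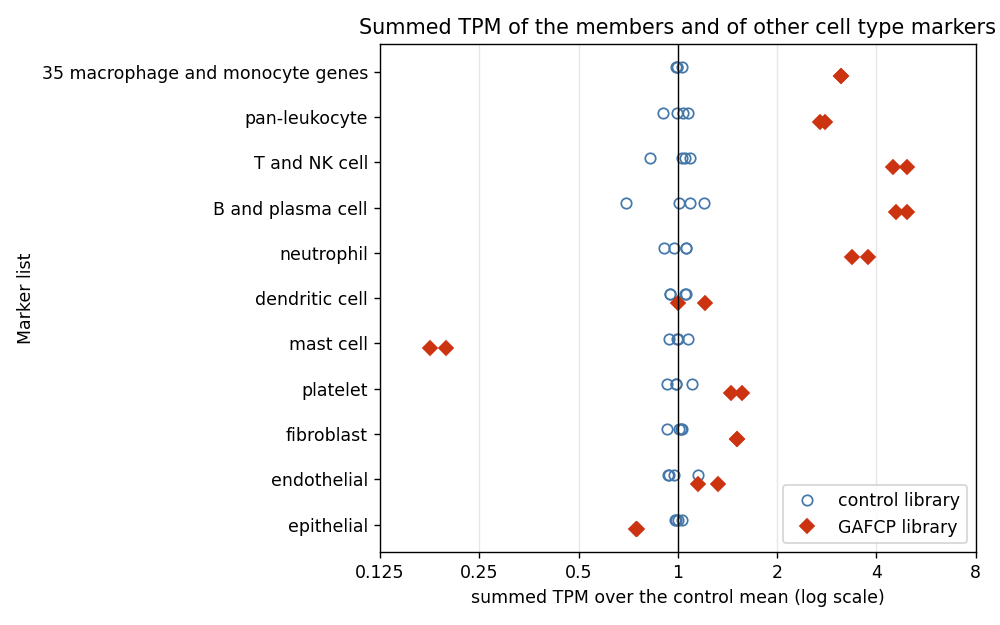
Summed TPM of the 35 genes and of each marker list in every library, divided by the control mean of that list (log axis). The 35 genes stand at 3.13 times the control mean with GAFCP, between the pan-leukocyte (2.74) and neutrophil (3.57) sums. The neutrophil sum is mostly S100a8 and S100a9. T and NK cell markers stand at 4.72, dendritic cell markers near 1 and epithelial markers below 1.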

How the data were processed

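RNA of sorted tumor cells was extracted with a column kit and handled by a company, per the labels' protocols. The authors deposited TPM values per gene; the submitters' processing notes name Salmon and mm10, with no version or annotation given in the sources used here. Titles gave groups and replicate numbers. After a filter (1 TPM or more in 2 libraries or more, 13720 genes), limma 3.58.1 (R 4.3.3) was run on log2(TPM + 1), with a mean-variance trend, 4 residual degrees of freedom and Benjamini-Hochberg adjustment over all tested genes. The index fit used log2(TPM + 0.1). Ratios of pairs, chosen after their values were seen, were compared by exact permutation, so those p-values are descriptive only. Both fits were tested on simulated data. Depth is unknown, so errors come from the replicate libraries alone. Replicate numbers did not pair the libraries by the labels. The 35 genes, classes, lists and index were chosen with earlier results of these data known. Named genes are the 35, up to 3 called genes with the smallest p per list, and others named after their values were seen (Krt7, Krt18, Cdh1, Ptprc, Cyba, Csf1, Il34, Cx3cl1, Ly6c2, Tlr4 and untested or lower list genes). Positions are whole genes of GENCODE M21 on GRCm38, the mm10 assembly, matched by symbol for 35 of 35. Alternatives changed the pseudocount, filter, scaling, variance model, weights, replicate block, index and libraries used.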

Additional observations from a re-analysis of the deposited data

Results flagged for a closer look

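Each of the 35 genes was checked for a control library standing apart from the other 3 (a wide gap to the nearest library relative to the whole range, by Dixon's test at the 95% level), a check that chance meets in about 1 of 20 groups. It was met by 4 genes. Control library 2 was highest for Lyz2 at 434.3 TPM and lowest for Ly86 at 6.37 TPM. Control library 3 was lowest for Mrc1 at 35.4 TPM and for Adgre1 at 4.49 TPM. All 4 genes were called higher with GAFCP without those libraries too.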

How the results depend on the processing

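The log2 changes of single genes kept their call in all 660 values computed under 19 alternatives, and called genes kept their direction. The uncalled Cx3cr1 went from -0.02 to 0.02 with median-of-ratios scaling. Relative to the index, 689 of 730 values under 21 alternatives did the same, 20 lost the call, 17 gained it and 4 turned. Those that turned were Fcer1g to 0.15 at a pseudocount of 5 and to 0.25 against all 17 shared genes, Fcgr2b to 0.00 against all 17, and Fcgr1 to -0.63 at a pseudocount of 5. Changes of sign where neither fit made a call were not counted, as for Fcgr1 (0.18 to -0.14) and Fcer1g (-0.03 to 0.01) at a pseudocount of 1. The cause was not tested. Medians moved most with the pseudocount. At 0.1 they were 1.50 (all 35), 2.12 (resident-type), 1.50 (monocyte-type) and 1.42 (shared), and at 5 they were 1.16, 1.72, 0.66 and 1.25. With median-of-ratios scaling they were 1.44 (all 35), 2.09 (resident-type) and 1.44 (shared), and the log2 ratio of summed TPM was 1.71. With controls 1 and 2 alone the medians of all 35 and of shared genes were both 1.34, and with controls 3 and 4 alone both 1.35, with 1.12 for monocyte-type genes. Library weights gave 1.97 for resident-type genes, and rescaling without the 50 most abundant genes 1.13 for monocyte-type genes. At a mean of at least 5 TPM fewer genes were tested: the median of the 35 was 1.42, 0 were lower by limma because Itgax was not tested, and 36 genes of the 8 lists were higher. Leaving out each library gave medians of 1.35 to 1.41 (all 35 and shared), 1.96 to 2.07 (resident-type) and 0.98 to 1.09 (monocyte-type), a log2 ratio of sums of 1.64 to 1.66, 33 to 33 genes higher and 1 to 1 lower, 10 to 12 above and 14 to 17 below the index, and 54 to 64 list genes higher and 4 to 5 lower. Replicate numbers are only names here, with 2 shared numbers whose deviations correlated at -0.00727 and -0.0195. With the replicate block, 33 genes were higher and 1 lower, 11 above and 16 below the index, and the medians of all 35 and of shared genes were both 1.34. Depth is unknown, so counting error could not be separated from other spread.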

Other observations

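The control libraries also differed among themselves in these genes, by far less than from the GAFCP libraries. The coefficient of variation over the 4 controls had a median of 5.77%, from 1.42% for Itgax to 48.6% for Aif1. The median log2 deviation of the 35 genes from the control mean was between -0.02 and 0.03 in the control libraries and 1.36 and 1.41 in GAFCP libraries 1 and 2. For 27 of the 35 genes the GAFCP libraries differed from each other by under 10%.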
